A study of Mus musculus with 12 samples.

Results

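The Clca genes encode the family once named calcium-activated chloride channel regulators. Members were the rows of the gene table whose gene name begins with Clca, which were 8 of 15855 genes. Of these, 5 were listed by name in advance (Clca1, Clca3a1, Clca3a2, Clca4a and Clca4b) and the remaining 3 (Clca2, Clca3b and Clca4c-ps) came in by the name alone. The family was chosen by values of this same table, the fold changes of its members between pMCAO and sham, so the differences between these groups below are given as a description, without p-values. The choice used no threshold on level, and all 8 genes passed the filter on low counts that the fit across genes used.

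Epithelial cells positive for EpCAM, a surface protein of epithelia, were sorted from the whole small intestine of C57BL6/J mice 24 h after surgery and their RNA was sequenced. In 5 mice the middle cerebral artery was blocked for good with a filament (pMCAO, permanent middle cerebral artery occlusion, a stroke without reperfusion), and 7 sham mice had the surgery without the occlusion. The methods of the study give male mice of 8 to 12 weeks, with no transgene or deletion stated for this experiment. The labels number each sample as a separate biological replicate, and cells of all regions and lineages of the small intestinal epithelium were sequenced together.

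CLCA proteins are not themselves ion channels. They are secreted or surface proteins with a metallohydrolase domain that cleave themselves and can change the activity of chloride channels such as TMEM16A, the product of Ano1. CLCA1 is a main protein of intestinal mucus and is made by goblet cells, while Clca4a and Clca4b are genes of absorptive enterocytes and Clca3a1 is best known from lymphatic endothelium.

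The family lay in a single cluster on the minus strand of chromosome 3 (GRCm38, chr3:144729677-145099443, 369.767 kb), and the 8 genes of the table were all 8 that GENCODE annotates. In ascending coordinates the order was Clca3a1, Clca3a2, Clca3b, Clca4c-ps, Clca4b, Clca4a, Clca1 and Clca2. Clca4c-ps is annotated as a transcribed pseudogene and the other 7 as protein coding. Coding sequences of Clca3a1 and Clca3a2 were identical at 97.1% of aligned bases, and those of Clca4a and Clca4b at 96.0%. Clca3b was 86.4% identical to Clca3a1 and 86.6% to Clca3a2, whereas Clca1 was 62.1% identical to Clca4a and to Clca4b and Clca2 stood between 52.9% and 56.2% from every other gene. The likeness among the Clca3 genes and between Clca4a and Clca4b can be read from the stretch below, but the order of identity over whole coding sequences cannot. It is the 60-base stretch of coding sequence that was most alike across the 7 coding genes. It is taken from the annotated transcripts of GRCm38, 5′ to 3′, with the 39 bases that are the same in all 7 genes in capitals.
Clca3a1: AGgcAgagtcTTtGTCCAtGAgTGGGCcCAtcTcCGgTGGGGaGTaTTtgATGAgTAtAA
Clca3a2: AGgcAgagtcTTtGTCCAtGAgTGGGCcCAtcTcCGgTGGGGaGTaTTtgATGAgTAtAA
Clca3b: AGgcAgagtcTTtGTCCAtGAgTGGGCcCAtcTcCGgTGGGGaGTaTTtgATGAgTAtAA
Clca4b: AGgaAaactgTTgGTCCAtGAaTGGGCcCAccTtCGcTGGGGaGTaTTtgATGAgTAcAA
Clca4a: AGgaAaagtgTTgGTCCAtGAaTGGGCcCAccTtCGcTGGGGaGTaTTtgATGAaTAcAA
Clca1: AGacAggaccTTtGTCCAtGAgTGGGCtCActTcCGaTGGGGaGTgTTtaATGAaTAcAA
Clca2: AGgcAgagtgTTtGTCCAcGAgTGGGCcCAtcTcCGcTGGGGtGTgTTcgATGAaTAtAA
The stretch began at coding base 447 in Clca3a1, Clca3a2 and Clca3b, at 453 in Clca4a and Clca4b, at 450 in Clca1 and at 474 in Clca2. The 3 Clca3 genes carried the same 60 letters, and Clca4a and Clca4b shared nearly all of theirs. Such likeness limits how reads could be assigned. Of all 100-base windows of the annotated transcripts, 21.9% in Clca4a and 6.49% in Clca4b also occurred in another annotated gene. The share was 9.47% in Clca3a1, 9.80% in Clca3a2, 0.608% in Clca3b and 11.99% in Clca4c-ps, with 0 such windows in Clca1 and Clca2. Counts of these close relatives are therefore less certain than those of Clca1 and Clca2, and how reads with several matches were treated was not stated.

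The upstream sequence of Clca3a1 is shown because the widest difference between groups, described further on, was in this gene. It holds the 250 bases before the RefSeq start (GRCm38.p6), chr3:144760978-144761227, 5′ to 3′ on the minus strand, with an 8-base TA repeat in capitals.
Clca3a1: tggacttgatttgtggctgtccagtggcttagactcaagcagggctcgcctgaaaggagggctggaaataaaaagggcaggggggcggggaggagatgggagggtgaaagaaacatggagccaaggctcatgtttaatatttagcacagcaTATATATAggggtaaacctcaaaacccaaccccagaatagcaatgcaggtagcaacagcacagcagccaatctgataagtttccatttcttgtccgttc
The repeat lay at bases -99 to -92 from the RefSeq start. Promoter windows of 3 Clca genes (Clca3a1, Clca4b and Clca2), each reaching 50 bases past the start, were searched on both strands for TATATA and TATAAA, which can overlap. TATATA was present in the windows of Clca3a1 and Clca4b and in 5.67% of all 32851 windows. TATAAA was present in that of Clca4b and in 13.6% of all windows.

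Levels are given as CPM, the counts of a gene relative to all counts of the sample, scaled between samples by the trimmed mean of M values (TMM), and between genes as CPM per kb of exon. The total count per sample ranged from 7418730 to 31925579. Before the groups are compared, 1 feature of the libraries has to be stated. Numbers in the sample titles place pMCAO replicate 1 and sham replicates 1 to 3 at library numbers 58 to 61, and the other 8 samples at 62 to 72. The earlier libraries held less RNA of goblet cell genes, with a summed level of 12 goblet genes of 3857 to 7508 CPM against 19176 to 50840 CPM in libraries 62 to 72. Enteroendocrine genes (142 to 231 against 989 to 1920 CPM) and tuft cell genes (16.2 to 43.2 against 148 to 693 CPM) were lower in the earlier libraries as well, while 6 general epithelial genes were higher (5896 to 7516 against 3433 to 5457 CPM). The earlier libraries also detected fewer genes, 13386 to 14712 against 15343 to 15766. What the numbers stand for is not stated in the labels, and fold changes are therefore given with the library set as a covariate too. Epithelial markers were present in every sample (6 of 6 genes, 3433 to 7516 CPM summed), and 0 of 7 stromal and muscle genes were in the table. Of 6 endothelial genes, Cdh5, Flt4 and Kdr were absent from the table, and Pecam1, Lyve1 and Prox1 were in it at a summed 1.19 to 32.5 CPM in sham and 0.684 to 22.7 CPM in pMCAO. Most of this was Prox1, a gene of lymphatic endothelium and of enteroendocrine cells, with a mean of 12.6 CPM beside 1.59 for Pecam1 and 1.68 for Lyve1, the other lymphatic marker. Their part in the Clca3a1 levels was not tested. All 10 immune cell genes were in the table, at a summed 51.9 to 652 CPM in sham and 73.8 to 440 CPM in pMCAO.

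Per kb of exon, Clca4a had the highest mean level over all samples, 1309 ± 990 CPM per kb (SD, n = 12). This order rested on libraries 58 to 61, where Clca4a had 2576 ± 203 and Clca1 116 ± 40.0 CPM per kb (n = 4), whereas in libraries 62 to 72 they had 675 ± 379 and 682 ± 271 (n = 8) and did not differ beyond their spread. Over all samples Clca4b had 518 ± 187 and Clca1 494 ± 354 CPM per kb, and these neighbours did not differ beyond their spread. Clca3a1 followed far below with 11.7 ± 13.4 CPM per kb and Clca3b with 5.12 ± 3.74, again within their spread of each other. The lowest were Clca3a2 with 0.905 ± 0.740, Clca4c-ps with 0.855 ± 0.627 and Clca2 with 0.808 ± 0.582 CPM per kb, which could not be ranked. The family as a whole took 0.685% ± 0.118 (SD, n = 7) of counts in sham and 0.779% ± 0.246 (n = 5) in pMCAO, with overlapping ranges of 0.528% to 0.824% and 0.546% to 1.15%. In bulk RNA, fewer cells of a type and less RNA per cell cannot be told apart, and this holds for all levels here.

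No gene was called between pMCAO and sham by limma-voom at an adjusted p of at most 0.05 and a log2 fold change of at least 1 (0 of 14462 genes, 0%), and so none of the 8 Clca genes was. At an unadjusted p below 0.05 the fit held 1219 genes (8.43%), 1 of them a Clca gene. DESeq2 called 68 genes, edgeR's quasi-likelihood test 0. Of the Clca genes, 6 were higher and 2 lower in pMCAO by estimate, with a median log2 fold change of 0.90 beside 0.06 over all genes tested. With the library set as a covariate the medians were 0.48 and 0.02. In 1 of 8 Clca genes, Clca3a1, every pMCAO sample lay above every sham sample, which was true of 45 genes (0.311%). Because the family was taken up with this contrast known, nothing is read from these counts.

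**Figure D1:**
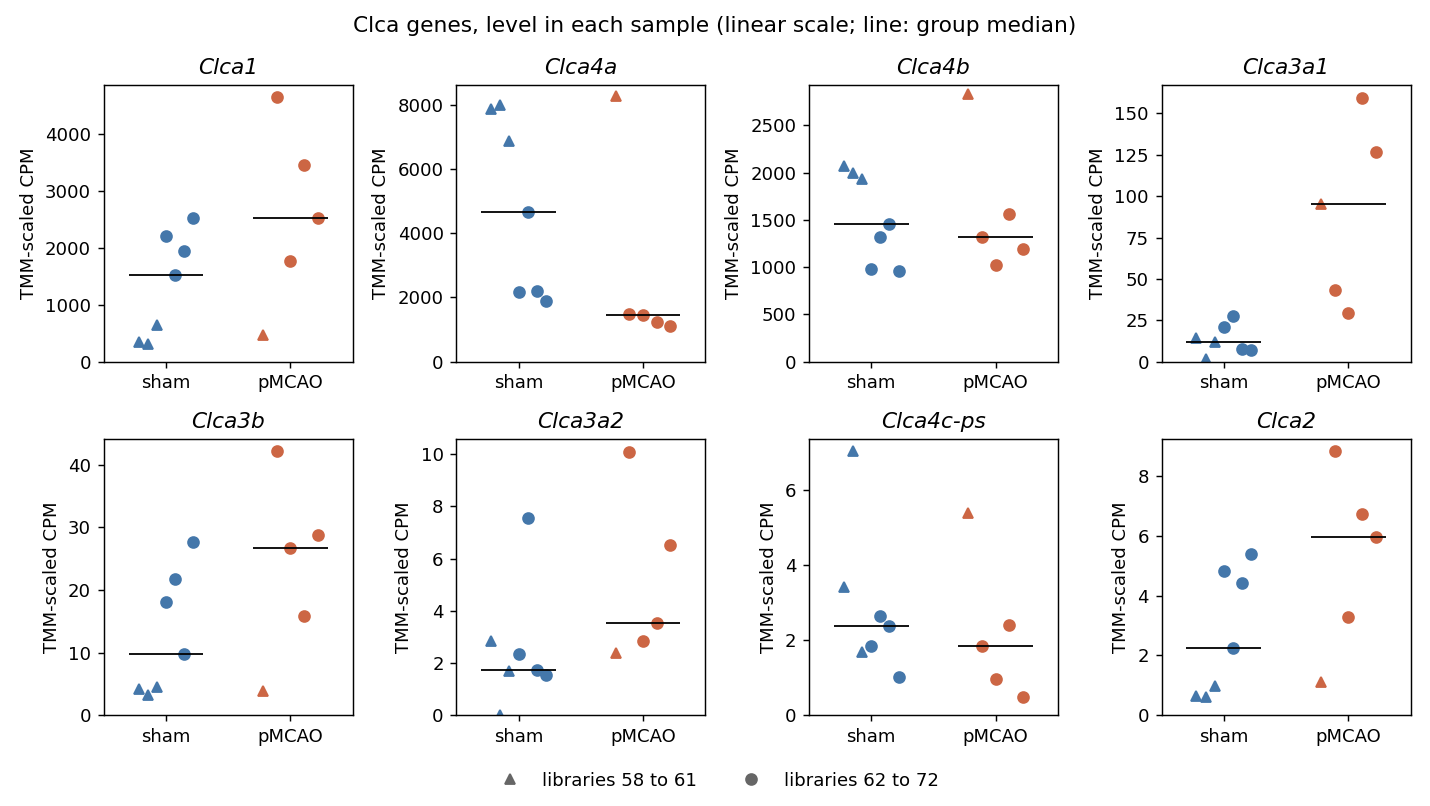
Level of each Clca gene (y axes, TMM-scaled CPM, linear and starting at 0) in 7 sham and 5 pMCAO samples. Points are samples, triangles are libraries 58 to 61, circles are libraries 62 to 72, and lines are group medians; Clca3a1 is the gene whose groups do not overlap, while triangles and circles separate in Clca1, Clca2, Clca3b, Clca4a and Clca4b.

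Clca3a1 was the member with the widest difference between groups. Its level in sham was 1.66 CPM at the lowest, 11.8 at the median and 27.7 at the highest. In pMCAO the 5 samples had 95.1, 43.4, 29.7, 159 and 127 CPM. The lowest pMCAO sample, replicate 3, stood just above the highest sham sample, replicate 5. Replicate 2 followed at 43.4 CPM, and replicates 1, 4 and 5 had 95.1 CPM or more. The log2 fold change was 2.79 ± 0.52 (SE), and the ratio of mean levels was 6.91. With the library set as a covariate the log2 fold change was 2.68 ± 0.52, so it moved by less than its error. Clca3a1 itself overlapped between the library sets. Its mean log2 CPM was 4.97 in libraries 62 to 72 and 3.71 in 58 to 61, and among sham samples the difference was 1.02, whereas the weighted fit with group as a term gave -0.13 ± 0.63, so no direction is read from it.

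Within libraries 62 to 72 the 4 pMCAO samples were again all above the 4 sham samples in Clca3a1, with a ratio of mean levels of 5.60; 1.87% of genes had this pattern. The single pMCAO sample among libraries 58 to 61 exceeded the 3 sham samples of that set by 3.82 on the log2 scale. Split further into the 4 blocks of neighbouring library numbers, of which 3 hold both groups, the differences were 3.82, 0.56 and 4.14. The size thus varied widely, and the second block, which holds pMCAO replicates 2 and 3 with sham replicates 4 and 5, had the smallest. With the 4 blocks as a covariate 47 genes were called (0.325%), of which 1 was a Clca gene, Clca3a1, at 2.67 ± 0.49. Sham replicate 7 is alone in its block and gave no information to that fit. In the fit without covariates, which called 0 genes, Clca3a1 was called once pMCAO replicate 3 was left out, among 17 of 14778 genes. That replicate had the lowest Clca3a1 level in pMCAO. The family and the 4 blocks were chosen with earlier results of these data known, so nothing is read from these calls. Exons of Clca3a1 overlap those of the antisense gene Gm34866 over 170 bases (4.36% of exon bases), and Gm34866 had 0 to 35 counts per sample, or 1.16% of the Clca3a1 total.

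Its nearest relatives stayed at lower levels. Clca3a2, the closest relative of Clca3a1 by coding sequence, had 0 CPM at the lowest, 1.74 at the median and 7.58 at the highest in sham. In pMCAO it had 2.39, 10.1, 2.86, 3.52 and 6.53 CPM. The groups overlapped, and the highest sham sample exceeded 4 of the pMCAO samples. The log2 fold change was 1.30 ± 0.64, and 1.11 ± 0.56 with the library set as a covariate. The value of 0 in sham replicate 2 allows up to 0.622 CPM (3 counts, counting error only). Clca3b is a mouse gene whose role in the gut is little described. Its sham level was 3.32 CPM at the lowest, 9.86 at the median and 27.6 at the highest, beside 3.85, 42.2, 26.8, 15.8 and 28.8 CPM in pMCAO. These groups overlapped too, and the log2 fold change of 0.91 ± 0.57 was 0.72 ± 0.30 with the library set in the fit.

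The ratio of Clca3a1 to Clca3a2 counts within a sample compares near-identical transcripts under the same library. In sham it ran from 3.66 to 9.05 with a mean of 5.67 ± 1.99 (SD, n = 6, leaving out the sample with 0 Clca3a2 counts). In pMCAO it ran from 4.29 to 45.3 with a mean of 23.8 ± 18.0 (n = 5). Clca3a2 counts were low, 7 to 131 in those sham samples and 28 to 432 in pMCAO. The ratios of 39.8 and 45.3 in pMCAO replicates 1 and 4 rested on 28 and 44 Clca3a2 counts. The groups overlapped through pMCAO replicate 2 alone, while the other 4 lay above all sham samples. Clca3a1 alone already separated the groups, and the family was chosen by this contrast, so this ratio is not a separate result. Within libraries 62 to 72 it was 5.50 ± 2.42 in sham and 19.8 ± 18.0 in pMCAO (n = 4 each). Clca3a1 and Clca3a2 varied together across samples, with Pearson's r of 0.76 over 12 samples and 0.73 after centring within the library sets. Both figures rest on counts that share transcript sequence.

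Clca4a, the enterocyte gene most like Clca4b, was lower in pMCAO by estimate. Sham samples had 1889 CPM at the lowest, 4657 at the median and 7976 at the highest. The 5 pMCAO samples had 8259, 1489.7, 1455, 1227 and 1127 CPM. Replicate 1 of pMCAO, the library numbered 58, was the highest of all 12 samples, and the other 4 were the lowest of all 12, so the groups overlapped. The log2 fold change was -1.10 ± 0.52 and became -0.66 ± 0.22 with the library set as a covariate. Within libraries 62 to 72 every pMCAO sample lay below every sham sample, with a ratio of mean levels of 0.485; this pattern was found in 1.64% of genes. Within libraries 58 to 61 the difference was 0.13 on the log2 scale, and within the other 2 blocks that hold both groups it was -1.11 and -0.90. Its exons overlap 334 bases of the antisense gene Gm16233 (11.1%), which had 146 to 1461 counts per sample, 1.35% of the Clca4a total.

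Clca4b, its neighbour and close copy, had an estimate near 0. Sham samples had 957 CPM at the lowest, 1457 at the median and 2067 at the highest, and pMCAO samples had 2832, 1314, 1026, 1565 and 1193 CPM. The ranges overlapped almost wholly, with a log2 fold change of 0.04 ± 0.29 and 0.23 ± 0.15 with the library set. The sign of this estimate differed between settings of the fit. The pseudogene Clca4c-ps, which lies beside Clca4b, had 1.02 CPM at the lowest, 2.38 at the median and 7.05 at the highest in sham. Its pMCAO values were 5.38, 1.85, 0.969, 2.40 and 0.490 CPM, overlapping those of sham, with a log2 fold change of -0.79 ± 0.53, and -0.42 ± 0.50 with the library set.

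The count ratio of Clca4a to Clca4b put the pair side by side within each sample. It was 2.94 ± 1.01 (SD, n = 7) in sham with a range of 1.51 to 4.00, and 1.44 ± 0.858 (n = 5) in pMCAO with a range of 0.784 to 2.92. In libraries 62 to 72 the 4 sham samples ran from 1.51 to 3.52 and the 4 pMCAO samples from 0.784 to 1.42, which did not overlap. In libraries 58 to 61 the pMCAO sample had 2.92 and the sham samples 3.55 to 4.00. In each library set the ratio was lower in pMCAO, although the sets themselves differed and libraries 58 to 61 held 1 pMCAO sample. Clca4a alone also separated the groups in libraries 62 to 72, so the ratio is not a separate result. How many other pairs of genes separate in this way was not counted. Clca4a and Clca4b correlated with r = 0.77 over 12 samples, but with 0.04 after centring within the library sets and -0.00 over libraries 62 to 72 alone (n = 8).

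**Figure D2:**
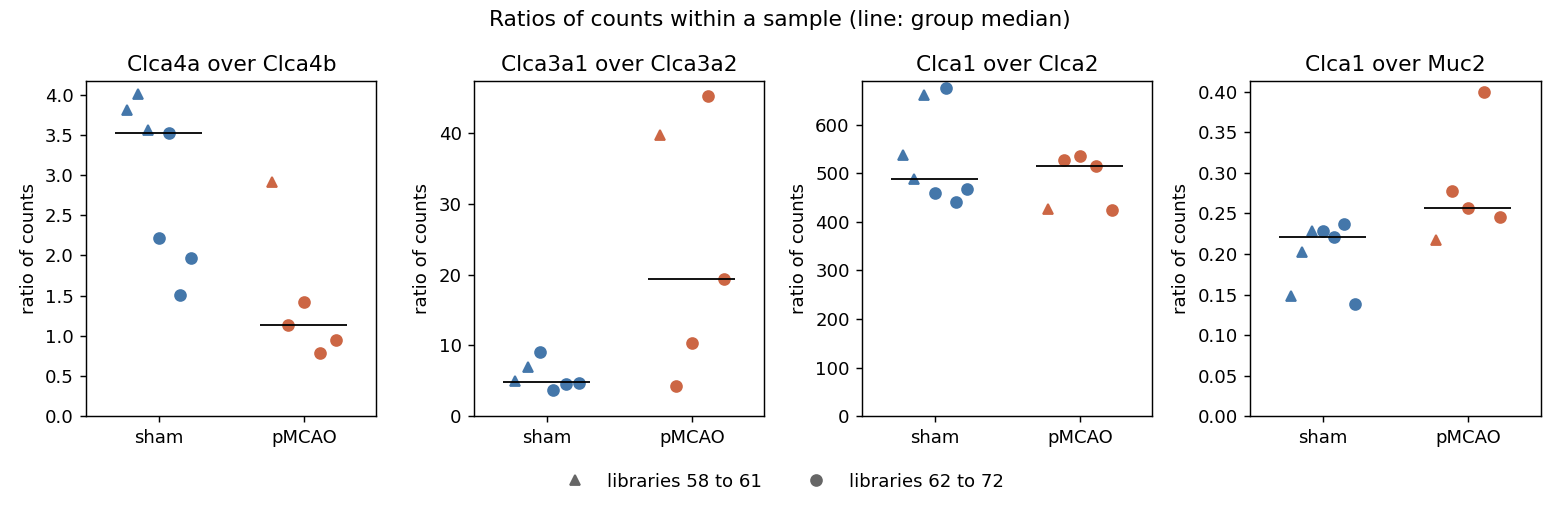
Ratios of counts within a sample (y axes, no unit, starting at 0) for 4 pairs of genes in sham and pMCAO, with triangles for libraries 58 to 61, circles for libraries 62 to 72 and lines at group medians. Clca4a over Clca4b is lower in pMCAO within each library set, with 1 pMCAO sample in libraries 58 to 61. Clca3a1 over Clca3a2 reaches 45.3 in pMCAO against 9.05 in sham, and Clca1 over Clca2 stays between 425 and 676 in all 12 samples.

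Clca1, the goblet cell member, had a sham level of 304 CPM at the lowest, 1525 at the median and 2523 at the highest. The pMCAO samples had 473, 4650.4, 1764, 3455 and 2531 CPM. The 4 samples of libraries 58 to 61, of either group, were the lowest of all 12, and the groups overlapped. The log2 fold change was 1.01 ± 0.65 and 0.45 ± 0.23 with the library set as a covariate. Within the 3 blocks that hold both groups it was 0.23, 0.64 and 0.60. The 12 goblet cell genes were all higher in pMCAO by estimate, none of them called and none with groups apart, with a median log2 fold change of 0.76. Muc2, the gel-forming mucin, stood at 0.55 ± 0.62, Zg16, a mucus lectin, at 1.11 ± 0.67, Fcgbp, a mucin-binding protein, at 0.88 ± 0.63 and Tff3, a trefoil peptide, at 0.92 ± 0.71. With the library set as a covariate 9 of the 12 were higher and 3 lower, with a median of 0.33. Muc2 was then at 0.01 ± 0.25, Zg16 at 0.55 ± 0.27, Fcgbp at 0.32 ± 0.21 and Tff3 at 0.32 ± 0.30.

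Relative to Muc2 in the same sample, Clca1 counts were 0.201 ± 0.041 (SD, n = 7) in sham and 0.279 ± 0.071 (n = 5) in pMCAO. The ranges of 0.139 to 0.237 and 0.217 to 0.3999 overlapped. Within libraries 62 to 72 the ratio was 0.206 ± 0.046 in sham and 0.295 ± 0.071 in pMCAO (n = 4 each). There the ranges of 0.139 to 0.237 and 0.245 to 0.3999 did not overlap. The share of other gene pairs that separate in these libraries was not counted, so nothing is read from this. Clca2, known mainly from keratinocytes and breast epithelium, was near the limit of counting, with 0.622 CPM at the lowest, 2.26 at the median and 5.39 at the highest in sham and 1.11, 8.84, 3.30, 6.72 and 5.96 CPM in pMCAO. The groups overlapped and the log2 fold change was 0.88 ± 0.60, and 0.51 ± 0.38 with the library set. Clca2 nevertheless followed Clca1 closely. Their count ratio was 513 ± 83.0 over all 12 samples and ran from 425 to 676 while Clca1 itself varied from 304 to 4650.4 CPM. The correlation was 0.99 over 12 samples, 0.91 after centring and 0.94 over libraries 62 to 72 (n = 8), although these genes shared no 100-base window.

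Between the library sets, 3 members were higher in the later numbers, 2 were lower and 3 overlapped. Clca1, Clca2 and Clca3b were higher in every one of libraries 62 to 72 than in any of 58 to 61, a pattern of 9.4% of genes. Their differences were 2.43 ± 0.24, 2.34 ± 0.78 and 2.36 ± 0.60 (log2, SE). Clca4a and Clca4b were lower in every one, a pattern of 5.46% of genes, by -1.91 ± 0.23 and -0.91 ± 0.16. Clca3a1, Clca3a2 and Clca4c-ps overlapped between the sets. Among sham samples alone the differences in mean log2 level were 2.32 for Clca1 and -1.57 for Clca4a.

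**Figure D3:**
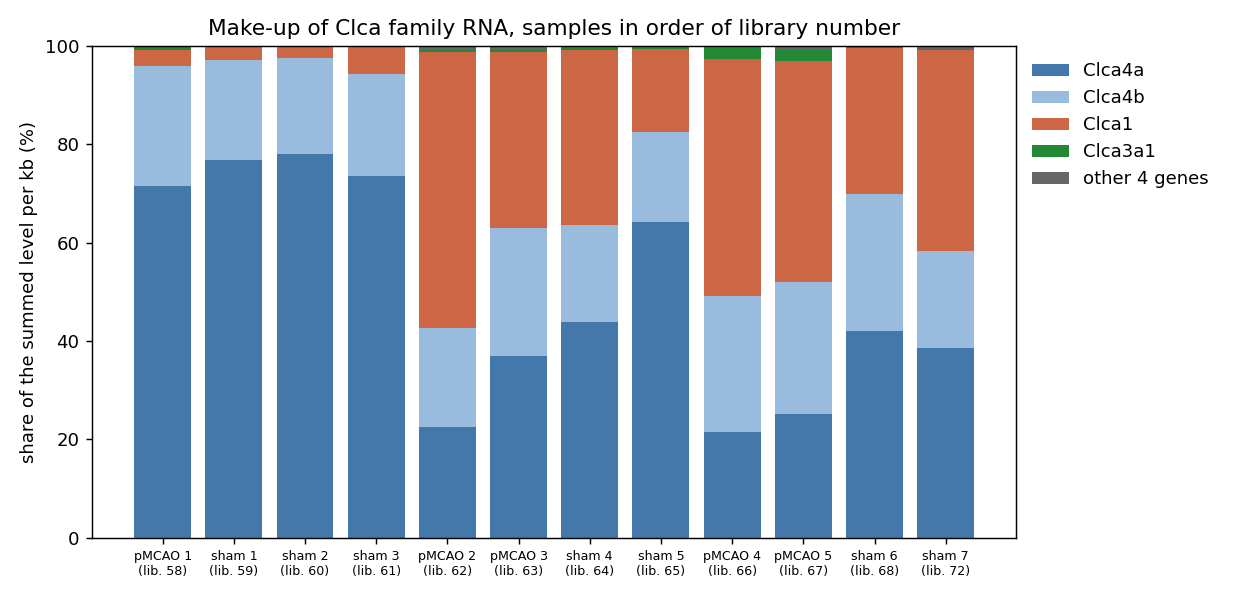
Share of each Clca gene in the summed level per kb of the family (y axis, percent) in each of the 12 samples, placed along the x axis by library number. Clca4a makes up 75.0% on average in libraries 58 to 61 and 36.9% in 62 to 72, Clca1 3.43% and 38.5%.

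The make-up of the family differed between the library sets, as the bars by library number show. Clca4a made up 75.0% ± 3.00 (SD, n = 4) of the summed level per kb in libraries 58 to 61 and 36.9% ± 14.2 (n = 8) in 62 to 72. Clca1 made up 3.43% ± 1.40 and 38.5% ± 12.1. Clca4b kept a similar share throughout, 21.3% ± 2.25 and 23.3% ± 4.16. Within libraries 62 to 72, Clca4a held 47.2% ± 11.6 in sham and 26.6% ± 7.07 in pMCAO (n = 4 each), and Clca3a1 held 0.214% ± 0.115 and 1.36% ± 0.941.

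**Figure D4:**
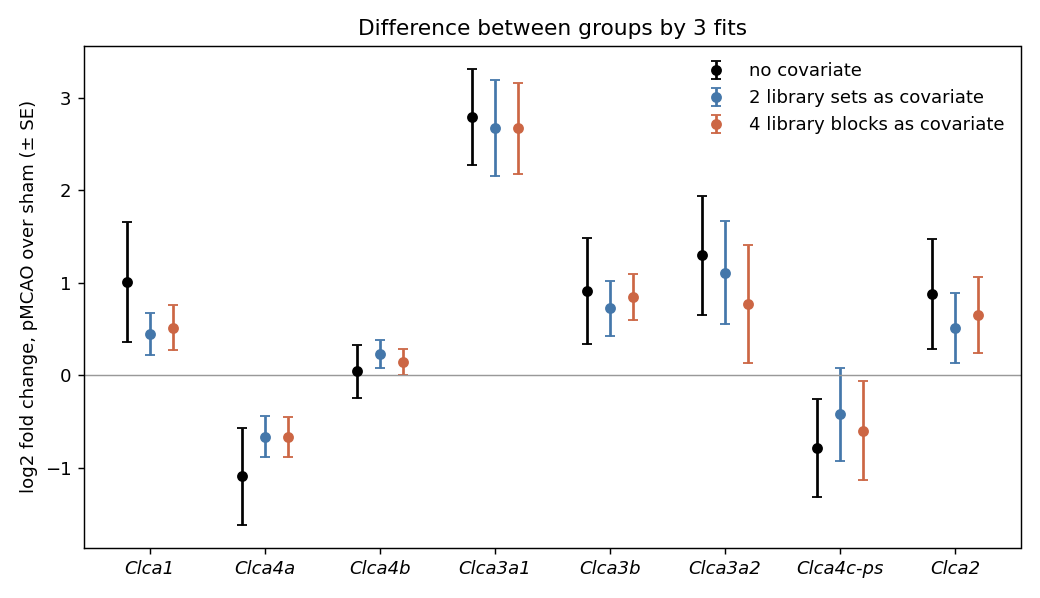
Log2 fold change of pMCAO over sham with its SE (y axis) for the 8 Clca genes in 3 fits: without a covariate, with the 2 library sets and with the 4 library blocks. Clca3a1 stays near 2.7 in all 3, and Clca1 and Clca4a move towards 0 once the library set is in the fit.

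Genes whose level followed each member most closely were ranked by Pearson's r over 12 samples among 6145 genes of sufficient level. The ranking is a description, since the samples share 2 library sets and the pMCAO and sham groups. Centring within the library sets leaves the difference between pMCAO and sham in the values, so genes that share it can rank high. The genes most like Clca3a1 included Slc37a4, the glucose-6-phosphate transporter, with r = 0.93, Atp8a1, a phospholipid flippase, with 0.90, and Slc16a10 and Dennd6a with 0.86 each. After centring within the library sets Atp8a1 (0.95) and Slc37a4 (0.92) remained, joined by Fut4 (0.89) and Atp6v0a1 (0.88). Clca1 was closest to Slc12a8, Zg16, Fcgbp, Mlph and Lypd8 (0.97 to 0.98). After centring Wars was closest to Clca1 (0.91), and Zg16 (0.90) remained. Clca4a was closest to Cast, the calpain inhibitor calpastatin, with 0.99 and 0.95 after centring. Clca4b was closest to Cdh17, a cadherin of enterocytes, with 0.96, and after centring to Nptn (0.90), ahead of Cdh17 (0.89). Clca3b had Fer1l6, Smim14, Gmds, Fcgbp and Sytl2 at the top (0.95 to 0.96), none of which was in its first 5 after centring. Of the members with low counts, Clca2 was closest to Zg16 (0.98), and after centring to Med28 (0.88), with Zg16 at 0.86. Clca3a2 was closest to Asb8 (0.91, and 0.89 after centring) and Clca4c-ps to Pvr (0.96 and 0.94).

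Genes of anion secretion and absorption other than the Clca family gave the setting in which these proteins are thought to act. Of 15 such genes 11 were higher and 4 lower in pMCAO by estimate, with a median log2 fold change of 0.57, and 0 were called. Guca2b, the uroguanylin precursor, was at 0.93 ± 0.26, Slc26a6, an anion exchanger, at 0.59 ± 0.24, Slc9a3r1, a scaffold of apical transporters, at -0.15 ± 0.23 and Clcn2, a chloride channel, at -0.13 ± 0.35. With the library set as a covariate 10 were higher and 5 lower, with a median of 0.29, and Guca2b was at 0.81 ± 0.23, Slc26a6 at 0.63 ± 0.21, Slc9a3r1 at 0.02 ± 0.14 and Clcn2 at 0.10 ± 0.23. Of 10 villus enterocyte genes 4 were higher and 6 lower, with a median of -0.16. Apoa4, an apolipoprotein, was at -0.15 ± 0.39, Fabp2, a fatty acid-binding protein, at 0.92 ± 0.38, Slc28a2, a nucleoside transporter, at -0.78 ± 0.45 and Krt20, a keratin of the villus, at -0.33 ± 0.36. With the library set as a covariate 6 were higher and 4 lower, with a median of 0.10, and these genes were at 0.07 ± 0.27, 0.84 ± 0.35, -0.47 ± 0.29 and -0.04 ± 0.16 in the same order.

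The genes on either side of the cluster were Sh3glb1, next to Clca3a1, and Odf2l, next to Clca2. Their log2 fold changes were -0.05 ± 0.18 and 0.68 ± 0.41, and 0.02 ± 0.14 and 0.44 ± 0.24 with the library set. Sh3glb1 had a sham median of 143 CPM and a pMCAO median of 119 CPM, with overlapping groups, so the estimate of the gene that borders Clca3a1 was near 0.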

How the data were processed

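RNA of 7 sham and 5 pMCAO samples was analysed. Per the labels and the study's methods, the authors depleted ribosomal RNA by cleavage, sequenced read pairs of 100 bases, aligned them to GRCm38 with STAR and assigned them to genes with featureCounts. Strand setting and annotation release are not given in the sources used here. The deposited table holds raw counts and CPM for 15855 genes, each at 0.5 CPM or more in at least 4 samples, and the deposited CPM equalled the counts scaled to the table total (190260 of 190260 values within 0.0005). Its columns of fold changes and p-values from the authors' own comparison were not used. That comparison was adjusted for collection day, which the labels do not give, so library numbers stood in as a covariate in the alternatives. 0 sample columns were left unmatched.

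Here, filterByExpr (minimum count 10) kept 14462 genes and removed 1393. Groups were compared by limma-voom (limma 3.58.1) on TMM-scaled counts (edgeR 4.0.16, R 4.3.3), with Benjamini-Hochberg adjustment. A gene was called where its adjusted p was 0.05 or less and its log2 fold change was 1 or more in size. Log2 CPM used a prior count of 2. Alternatives included DESeq2 1.42.0, edgeR's quasi-likelihood test, other scalings and filters, sample weights, library covariates, a replicate block and leaving out each sample. The fits were tested on simulated data. Members, gene lists and the 4 library blocks were chosen with earlier results of these data known. All Clca genes were named, with some or all of the 5 genes most like each by Pearson's r. The list examples of highest mean CPM and the genes next to the cluster were named too. Ano1, Cftr and the endothelial genes were named outside this rule. One gene among the 5 most like Clca3a1 and the upstream sequences of other Clca genes are not reported here. Coding sequences were aligned with MAFFT 7.526, and exon lengths, coordinates and 100-base windows came from GENCODE on GRCm38. Sample totals of 7418730 to 31925579 counts set the counting precision. The ± values are SDs across samples or SEs of the fit, and only the bound on a count of 0 covers counting error alone. No 2 replicates agreed within sampling noise.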

Additional observations from a re-analysis of the deposited data

Results flagged for a closer look

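In 16 sets of values (8 Clca genes in 2 groups), 2 held a sample whose gap to the others was wide for the group's range, and chance gives about 1 in 20. The log2 CPM of Clca4a in pMCAO replicate 1 was 13.01, while the other 4 pMCAO samples had 10.36 ± 0.19 (SD). This library is numbered 58, and the 3 sham samples of libraries 58 to 61 had similarly high Clca4a levels of 6857 to 7976 CPM.

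The log2 CPM of Clca3a2 in sham replicate 2 was -3.30, from a count of 0, while the other 6 sham samples had 1.37 ± 0.83. At this depth up to 0.622 CPM would be allowed. The cause of neither value was tested.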

How the results depend on the processing

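Across 23 alternatives the log2 fold change of Clca3a1 stayed between 2.52 and 3.13 and that of Clca4a between -1.67 and -0.66, and 7 of the 8 Clca genes kept their sign in all 23. Clca4b had the other sign in 6 (sample weights, library number, replicate block, and without sham replicate 4, sham replicate 7 or pMCAO replicate 1), with a range of -0.20 to 0.23.

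The number of genes called moved from 0 to 68 with DESeq2, 18 with sample quality weights, 156 with library number as a covariate, 16 with the library set, 47 with the 4 library blocks and 243 with a replicate block. Each of these fits tested 14462 genes. Of the Clca genes, DESeq2 called 1 and the 4 blocks 1 (Clca3a1 in both), library number 2 and the replicate block 2 (Clca3a1 and Clca4a in both). The family was taken up with this contrast known, so nothing is read from how many of its genes were called. Leaving out each sample gave 0 to 17 genes called and 0 to 1 Clca genes: 5 genes without sham replicate 7, 8 without pMCAO replicate 1, and 17 without pMCAO replicate 3, then including Clca3a1. Same-numbered samples deviated together by correlations of -0.239 to 0.398, so the numbers do not pair the samples. In the replicate block, sham replicates 6 and 7 stood alone in their block and gave no information on the difference. The causes of these changes were not tested.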

Other observations

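Ano1, the gene of the calcium-activated chloride channel TMEM16A that CLCA1 is known to act on, was at the edge of detection in these epithelial cells. It had 0 CPM at the lowest, 0.207 at the median and 2.59 at the highest in sham, and 0.922, 2.32 and 6.87 CPM at the same points in pMCAO. The groups overlapped. Its log2 fold change, from these low counts, was 2.91 ± 1.08 (SE), and 2.31 ± 1.01 with the library set as a covariate. Cftr, the chloride channel of crypt cells, had a median of 19.6 CPM in either group.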
